A study of Homo sapiens with 8 samples.

Results

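The experiment described here set siE2, one of 3 small interfering RNAs (siRNAs) against ESRRA, beside the control siRNA siC in MDA-MB-231 cells. It comprised 4 of the 8 RNA-seq libraries of the study, namely every library labelled siE2 (replicates 1 and 2) or siC (replicates 1 and 2). All 23368 genes of the deposited count table were considered, and 13395 passed a filter on low counts and were tested. MDA-MB-231 is an established human breast cancer line of mesenchymal-like character that lacks estrogen receptor alpha and progesterone receptor. Both groups were the same unmodified line and differed in the siRNA given, which in the siE2 group targeted the messenger RNA of ESRRA. The other 4 libraries, siE1 and siE3 with 2 replicates each, carried the other ESRRA siRNAs and were used to ask where siE2 differed from them. The cells were grown in serum-supplemented medium and transfected with a commercial reagent. The time between transfection and harvest was not given in the sources used here. Whether replicates 1 and 2 were separate cultures is not stated, so the p-values reflect how far these libraries scatter, and that scatter may be technical.

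ESRRA encodes ERR alpha, an orphan nuclear receptor that is related to the estrogen receptors but binds no known natural estrogen. It binds DNA at a short extended half-site and works with the PGC-1 coactivators. It is best known for raising genes of mitochondrial respiration, the citric acid cycle and fat oxidation. An siRNA guides the RNA-induced silencing complex to messages that match it, and through a short seed match it can also lower other messages. Proliferation of a cell rests on a connected set of genes. Cyclins and CDC25 phosphatases release the cyclin-dependent kinases, E2F factors then raise the replication genes, and a later wave raises the genes of mitosis. Growth in mass rests on ribosomal proteins, their assembly factors in the nucleolus and the enzymes that charge transfer RNAs.

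Totals of 21835995 to 25880548 counts per library were assigned to genes over the 8 libraries. Replicates lay close together: log2 values differed with a standard deviation of 0.125 between the siC pair and 0.120 between the siE2 pair, against 0.436 to 0.463 for the 4 pairs of a siC with a siE2 library. The line's own markers were read in all 4 libraries, with VIM, the mesenchymal filament protein, at 3592 and 3620.3 CPM (counts scaled by library size to a common base) under siC and 3165 and 3174 under siE2. The progesterone receptor gene had no count in any of the 4 libraries, and ESR1 had at most 1. ERBB2, also listed as a low marker, was read at 60.2 and 54.9 CPM under siC and 66.4 and 67.1 under siE2. Summed CPM of 5 endothelial markers was 1.96 and 2.32 under siC and 2.54 and 3.63 under siE2, and 4 adipocyte markers summed to at most 0.389. Among the endothelial markers PECAM1 had 3 counts in each siC library and 16 in each siE2 library. CDH5 had 10 and 21 counts under siC and 17 and 8 under siE2. Of 7 blood markers, CD3E and HBB were at 0, and CD68, a lysosomal protein also made outside blood, held nearly all of the sum of 214 to 295 CPM. The sum of 6 fibroblast markers was 0.867 and 0.943 CPM under siC and 3.32 and 3.50 under siE2, carried by PDGFRB, with DCN and LUM at 0. The part of other cell types in the results was not tested. In bulk RNA, fewer cells in a state and less RNA per cell cannot be told apart.

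The targeted message was lower in both siE2 libraries. ESRRA stood at 62.9 and 64.8 CPM under siC and at 8.86 and 7.25 CPM under siE2, so 12.6% of the control level was left. The groups were far apart, with a log2 fold change of -2.99 (SE 0.0896, adjusted p = 6e-12). ESRRA was the most reduced of all genes that met the level rule for naming. It was lower under siE2 than under siE1 (log2 difference -0.37, adjusted p = 0.0092), and against siE3 the difference was -0.06 (adjusted p = 0.67). The other members of the family, ESRRB and ESRRG, had 0 to 1 counts in the siC and siE2 libraries and did not enter the test.

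The list of ERR receptors and coregulators had 17 tested genes, of which 8 fell and 5 rose under siE2 (median log2 fold change 0.02, against 0.01 over all 13395 genes). The rises are 29.4% of the list, near the 27.9% over all genes, and the falls 47.1%, against 28.5%. Beside ESRRA itself, PPARGC1B and PPRC1 of the PGC-1 coactivator group fell. PPARGC1B, which codes for PGC-1 beta, went from 17.5 and 19.4 CPM to 11.6 and 8.24, a log2 fold change of -0.90 (adjusted p = 1.8e-05). PPRC1 went from 138 and 151 CPM to 77.4 and 75.3 (-0.92). TFAM and TFB2M, which serve transcription of the mitochondrial genome, fell by 0.41 and 0.44 on the log2 scale. In the other direction PPARGC1A, which codes for PGC-1 alpha and is named here after its values were seen, went from 4.43 and 4.11 CPM to 6.01 and 6.6 (log2 fold change 0.56, adjusted p = 0.0032). NCOA2, a general nuclear receptor coactivator, rose by a log2 fold change of 0.75. PPARGC1B was also lower under siE2 than under siE1 (-1.14) and than under siE3 (-0.98).

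Over the whole profile, 7560 genes (56.4%) differed between siE2 and siC at an adjusted p below 0.05 in edgeR's quasi-likelihood test. Of these, 3736 (27.9%) were higher under siE2 and 3824 (28.5%) lower. Both shares are the background for every list count against siC. The libraries of the groups did not overlap for 3733 of the former and 3824 of the latter. Nearly every called gene thus had its groups apart, so a lack of overlap, here and below, adds little to a call. How often genes without a call also lay apart is not given here. The changes were mostly small, with a median fold of 1.42 among genes that rose and 1.3 among genes that fell. Counting only changes of at least 1.5-fold, 1529 genes (11.4%) were higher and 879 (6.56%) lower, and at 4-fold the counts were 93 and 7. The excess of 1.5-fold rises lay among genes with few reads. With the genes cut into 4 equal classes by CPM, 21.3% of the lowest class rose and 5.73% fell by that much, against 12.7% and 6.3% in the next. In the upper classes the falls were slightly more frequent, with 6.45% rising and 7.26% falling in the third class and 5.14% and 6.96% in the highest. Falls of any size were called mostly among genes with many reads: 45.1% of the highest class, at 83.2 CPM and above, were called lower, whereas 8.09% of the lowest class were. Rises were called for 24.8% to 30.5% of each class. CPM does not correct for transcript length, and more reads also make small changes easier to call.

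**Figure D1:**
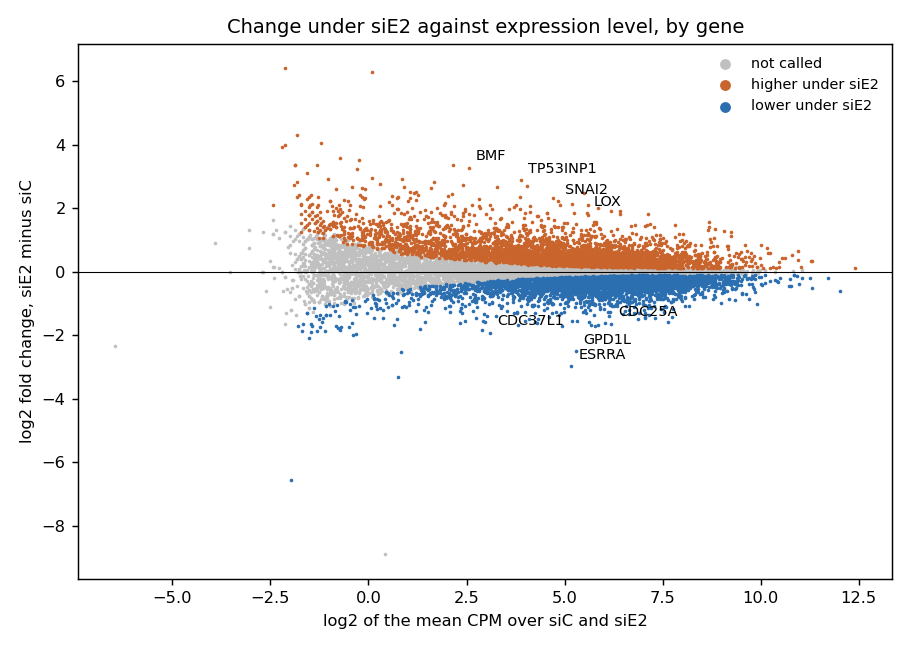
Log2 fold change of each tested gene under siE2 against siC (vertical axis) against the log2 of its mean CPM over the 4 libraries (horizontal axis); orange points were called higher, blue points lower and grey points were not called. The blue points form a dense, shallow band at high CPM, the orange points reach furthest from 0 at low CPM, and ESRRA lies at -2.99.

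The ESRRA siRNAs also differed from each other. The standard deviation of log2 differences was 0.447 to 0.471 between siE2 and siE1 libraries, 0.368 to 0.401 between siE2 and siE3 libraries and 0.386 to 0.396 between siE1 and siE3 libraries. Against siE1, 3835 genes (28.6%) were higher and 3819 (28.5%) lower under siE2. Against siE3, 3140 (23.4%) were higher and 3351 (25.0%) lower. These shares are the background for list counts against siE1 and siE3. A total of 1446 genes (10.8%) were higher under siE2 than under siC, siE1 and siE3 alike, and 1712 (12.8%) were lower than all of these. For comparison, siE1 against the same controls called 24.5% of genes higher and 25.8% lower, and siE3 called 21.3% higher and 20.8% lower. The contrasts of siE2 with the other groups share the siE2 libraries, and those with siC share the siC libraries.

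The strongest rise by the rule for named genes was that of BMF, a pro-apoptotic BH3-only protein. It was at 1.0 and 1.2 CPM under siC and 12.8 and 8.54 under siE2, a 9.64-fold difference (log2 3.27, SE 0.237, adjusted p = 2.1e-08). TP53INP1, a stress-induced nuclear protein linked to p53, went from 3.65 and 3.34 CPM to 25.5 and 26.2 (log2 2.89, SE 0.119). TRIB2, a pseudokinase, rose from 13.1 and 14.7 CPM to 80.2 and 73.4 (log2 2.46). The rule admitted only genes whose siC and siE2 libraries did not overlap. SNAI2, the mesenchymal transcription factor Slug, rose from 8.63 and 11.4 CPM to 47.1 and 46.0, a 4.63-fold difference (2.21). Also among the 14 strongest rises were FILIP1L (2.70), SLC38A4, an amino acid transporter (2.66), OLFML2A (2.34), TK2, the mitochondrial thymidine kinase (2.31), and LFNG, which modifies Notch receptors (2.28). They also included TOX (2.11), SLC22A18 (2.11) and the membrane proteins C4orf34 (2.74), TMEM65 (2.12) and TMEM64 (2.09). Just below these stood CCNG2, an unconventional cyclin made in quiescent cells, which went from 6.07 and 7.33 CPM to 27.2 and 28.4 (2.05). DDIT4, a stress-induced inhibitor of mTORC1, went from 19.7 and 26.4 CPM to 107 and 77.5 (2.00).

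After ESRRA, the strongest fall was that of GPD1L, a glycerol-3-phosphate dehydrogenase-like enzyme. It was at 69.6 and 64.4 CPM under siC and 11.6 and 12 under siE2, which left 17.6% (log2 fold change -2.50, SE 0.0762, adjusted p = 6e-12). CDC37L1, a relative of the kinase cochaperone CDC37, went from 14.1 and 12.9 CPM to 3.24 and 3.88 (-1.92). JKAMP, a membrane protein that binds the kinase JNK, went from 81.0 and 87.9 CPM to 26.8 and 24.2 (-1.73). Groups that do not overlap were again a condition of the choice. DYNLT1, a dynein light chain, and GGCT, an enzyme of glutathione turnover, fell by 1.69 and 1.68 on the log2 scale. SPNS2, which exports sphingosine-1-phosphate, fell by 1.63, and SLC40A1, the iron exporter ferroportin, by 1.62. CDC25A, the phosphatase that switches on cyclin-dependent kinases at entry to S phase, went from 107 and 115 CPM to 37.1 and 34.2 (-1.64, SE 0.0747). The remaining genes among the 14 strongest falls were PPM1E, SCAMP5, SLC47A1, C15orf57 and C5orf62, between -1.84 and -1.60.

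The growth-related fall ran through the cell cycle lists, beginning with regulators of entry to S phase. Of 43 tested cyclins, kinases, inhibitors and E2F or MYC family genes, 22 fell and 12 rose (median -0.15). The falls are 51.2% of the list, against 28.5% of all genes, and the rises 27.9%, the same share as over all genes. SKP2, the ubiquitin ligase subunit that marks the inhibitor p27 for destruction, went from 243 and 223 CPM to 78.7 and 89.6 (log2 fold change -1.47, SE 0.0615, adjusted p = 8e-11). CDK2 fell by 0.67 and E2F3 by 0.66 on the log2 scale, and LIN52, a subunit of the DREAM and MuvB complexes, by 1.07. Among the rises, CDKN1C, the inhibitor p57, went from 5.34 and 4.58 CPM to 15.6 in both siE2 libraries (log2 1.65), and MXD4, a MYC antagonist, from 28.7 and 28.0 to 87.4 and 78.6 (1.55). CDKN1A, the inhibitor p21, moved the other way, from 29.3 and 32.8 CPM to 19.2 and 18.1 (-0.73, adjusted p = 1.4e-06). Thus p57 and the MYC antagonist were higher while p21 was lower. SKP2 was lower under siE2 than under siE1 (-1.35) and siE3 (-1.0), and CDC25A likewise (-1.53 and -1.35).

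DNA replication genes fell almost throughout. Of 48 tested, 40 were lower and 2 higher under siE2, with a median log2 fold change of -0.43, against 28.5% lower and a median of 0.01 over all genes. MCM10, which loads polymerase at origins, went from 108 and 110.1 CPM to 50.4 and 56.8 (log2 fold change -1.03, SE 0.0603). MCM3, a subunit of the replicative helicase, went from 633 and 667 CPM to 418 and 412 (-0.65). PCNA, the sliding clamp, went from 175 and 184 CPM to 111 and 117 (-0.65). All siE2 libraries were below all siC libraries in these 3 genes. FEN1, the flap nuclease, and RFC3, a clamp loader subunit, both fell by 0.75 on the log2 scale. The exceptions were RFC5, another clamp loader subunit (0.52), and POLD2, a polymerase delta subunit (0.20). Against siE1, 38 of the 48 were lower under siE2, and against siE3, 35 were. Against the same siC libraries, siE1 and siE3 each lowered 20 of the 48.

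Enzymes that make nucleotides followed, with 19 of 28 lower and 2 higher (median -0.35). Of the 28, 20 lay in the highest CPM class, where 45.1% of all genes were called lower. RRM1, the large subunit of ribonucleotide reductase, went from 448 and 451 CPM to 271 and 281 (log2 fold change -0.71). In purine synthesis, PPAT, the first committed enzyme, fell by 0.85, PFAS by 0.76 and GMPS by 0.60. DUT, which removes dUTP, fell by 0.59. The folate enzymes MTHFD1, MTHFD2 and MTHFD1L, which supply one-carbon units, fell by 0.53, 0.61 and 0.48, among 8 of 15 serine and folate genes that fell and 2 that rose. Of these 15, 8 lay in the highest CPM class.

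Mitotic genes fell as broadly, with 46 of 51 lower and 2 higher (median -0.37). The highest CPM class, where 45.1% of all genes were called lower, held 38 of the 51. BUB1, a kinase of the spindle checkpoint, went from 303 and 310.1 CPM to 168 and 181 (log2 fold change -0.81, SE 0.047, adjusted p = 1.9e-09). AURKB, the kinase of the chromosomal passenger complex, went from 207 and 229.8 CPM to 124 and 126 (-0.81). ESPL1, the protease separase, went from 75.5 and 80.3 CPM to 46.7 and 48.1 (-0.72). Again the siE2 and siC libraries did not overlap. NUSAP1, which bundles spindle microtubules, fell by 0.75, and the chromokinesin KIF4A by 0.63. CENPA, the centromeric histone, rose by 0.45. Of the 51, 41 were lower under siE2 than under siE3 and 33 lower than under siE1, where 25.0% and 28.5% of all genes were. BUB1 stood at 286 and 278 CPM under siE1 and at 298 and 313 under siE3, above both siE2 libraries. ESPL1 differed from siE1 by -0.82 and from siE3 by -0.87.

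Repair genes that act at replication forks fell too, with 28 of 37 lower and 4 higher (median -0.40). CHEK1, the checkpoint kinase, went from 97.4 and 98.0 CPM to 56.7 and 58.6 (log2 fold change -0.76). FANCA and UBE2T of the Fanconi pathway fell by 0.74 and 0.70 and the helicase BLM by 0.69, while RAD50 rose by 0.42. Replication-dependent histone genes, of which 10 of 17 listed could be tested, showed 1 lower and 2 higher (median 0.04). These messages normally lack a poly(A) tail, and their close copies make single values uncertain. HIST1H1C was the gene that fell (-0.47), and both rises were lost in DESeq2's test (HIST2H2BE adjusted p = 0.096, HIST1H2BD adjusted p = 0.055).

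Promoter sequences of the replication and mitosis genes are shown because the members of each list moved together. They were taken from RefSeq on build GRCh38.p14, whereas the authors' processing used hg19, and each promoter spans 250 bases before to 50 after a gene start. Matched promoters were found for 43 of 48 replication genes and 41 of 51 mitotic genes. E2F words (TTTCCCGC, TTTCGCGC, TTTGCCGC or TTTGGCGC, each counted on either strand) were in 44.2% of the replication promoters and in 3.31% of all 35116 promoters of that table. That table was not limited to genes tested here, whereas the lists hold a single promoter per tested gene. Shares of lists and of all promoters, here and below, are therefore of unlike sets. The examples below, from the replication genes named above, have the E2F word in capitals, and each is written 5′ to 3′ on the gene's own strand.
RFC3, chr13:33818069-33818126, plus strand: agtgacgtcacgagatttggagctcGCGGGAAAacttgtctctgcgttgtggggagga
MCM3, chr6:52284884-52284941, minus strand: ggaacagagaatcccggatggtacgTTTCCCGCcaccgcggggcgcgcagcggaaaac
MCM3, chr6:52284714-52284771, minus strand: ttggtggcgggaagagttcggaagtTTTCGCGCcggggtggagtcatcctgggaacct
PCNA, chr20:5126649-5126706, minus strand: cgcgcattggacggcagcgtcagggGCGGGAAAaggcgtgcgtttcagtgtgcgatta
These 4 windows lie upstream of a gene start or across it, and GCGGGAAA is the first word read on the other strand. MCM3 held a pair of such words, at -174 and -4 from its start, while the word began at -55 in RFC3 and at -59 in PCNA. No binding was measured, so a match is a description of the letters alone.

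In the mitotic promoters the word TTTGAA, known as the cell cycle genes homology region (CHR) and read by the MuvB complexes, was frequent. It was in 70.7% of the 41 matched promoters and in 15.2% of all promoters in the table, on either strand, while 2.33% of the replication promoters held it. CCAAT was in 78.0% of the mitotic promoters against 34.6% of all promoters. The first 3 named mitotic genes with a CHR word are given with that word in capitals, 5′ to 3′ on the gene's strand.
NUSAP1, chr15:41332869-41332910, plus strand: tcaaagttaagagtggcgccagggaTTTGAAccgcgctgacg
ESPL1, chr12:53268243-53268298, plus strand: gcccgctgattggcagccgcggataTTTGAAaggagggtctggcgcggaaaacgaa
KIF4A, chrX:70290045-70290100, plus strand: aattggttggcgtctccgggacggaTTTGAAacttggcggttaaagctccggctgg
The CHR word began at -31 in ESPL1, at -34 in KIF4A and at 13 in NUSAP1, counted from the gene start.

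Ribosomal protein genes fell nearly to the last member. Of 47 tested genes of the large subunit 46 were lower and none higher (median -0.32), and of 31 of the small subunit 29 were lower and none higher (median -0.35). RPL27A went from 203 and 215 CPM to 116 and 125 (log2 fold change -0.79, SE 0.0617). RPL5, which with RPL11 also restrains MDM2, went from 598 and 611 CPM to 451 and 459 (-0.41). RPS3 went from 933 and 966 CPM to 719 and 741 (-0.38, SE 0.0403, adjusted p = 1.2e-06). The falls were narrow, and 5 of the 47 and 2 of the 31 reached 1.5-fold. These genes have many processed copies, so how reads were shared between them is uncertain. They also lie high in reads, with 38 and 24 members in the highest CPM class, where 45.1% of all genes were called lower. Against siE1, 42 of 47 large and 25 of 31 small subunit genes were lower under siE2, and against siE3, 39 and 29 were. Against siC, siE1 lowered 14 genes of each subunit, and siE3 lowered 8 of the large and none of the small subunit.

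**Figure D2:**
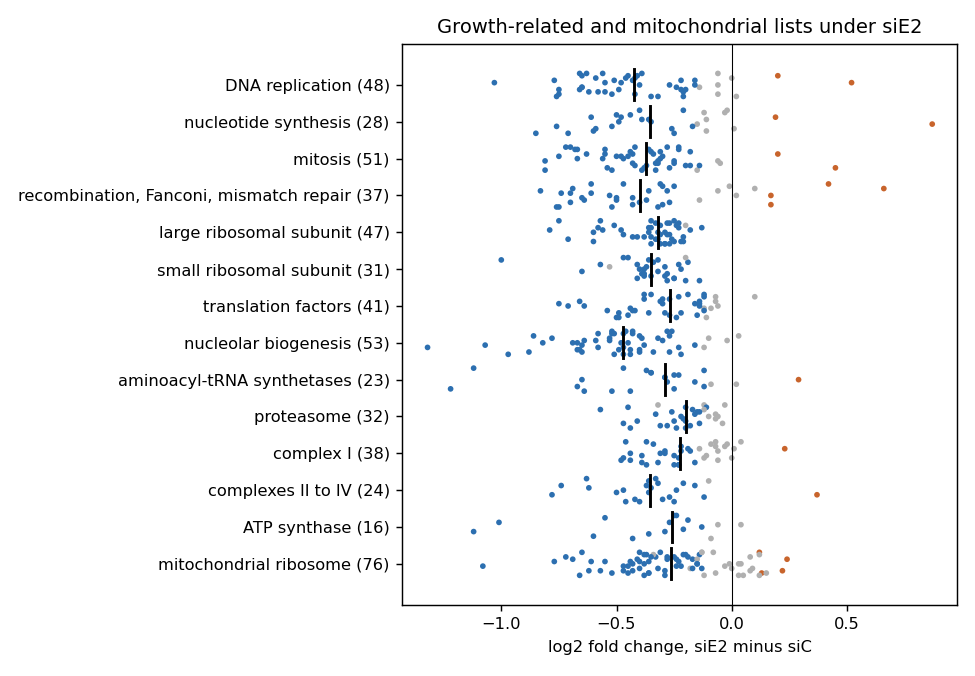
Log2 fold change of each tested member of 14 lists under siE2 against siC (horizontal axis); orange members were called higher, blue lower, grey were not called, the black bar is the median and the number of members stands beside each name. Every median lies below 0, from -0.47 for the nucleolar list to -0.20 for the proteasome.

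Nucleolar genes that build ribosomes had 49 of 53 members lower and none higher, at a median of -0.47. Of these 53, 36 lay in the highest CPM class, where 45.1% of all genes were called lower. UTP20, part of the small subunit processome, went from 198 and 180.3 CPM to 75.1 and 76.7 (log2 fold change -1.32, SE 0.0824, adjusted p = 4.2e-09). GNL3L, a nucleolar GTPase, went from 103 and 104 CPM to 52.7 and 46.2 (-1.07). BRIX1 and LYAR fell by 0.82 and 0.78, and FBL, the methyltransferase fibrillarin, by 0.58. UTP20 was at 146 in both siE1 libraries and at 129 and 163 under siE3, between siC and siE2. FBL differed from siE1 by -0.08 (adjusted p = 0.093) and from siE3 by -0.35. The nucleolar fall was shared with the other siRNAs against the same controls, with 35 genes lower under siE1 and 42 under siE3. Even so, 37 genes were lower under siE2 than under siE1 and 31 lower than under siE3.

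Of 17 tested snoRNA host and related noncoding RNAs, 12 fell and 1 rose (median -0.58). Many of these hosts carry a 5′ terminal pyrimidine tract like ribosomal protein messages. SNHG1 went from 91.8 and 103 CPM to 54.1 and 53.2 (log2 fold change -0.86), and SNHG3 and SNHG7 fell by 1.03 and 0.98. The gene that rose was NEAT1, the RNA of paraspeckles, from 84.2 and 109.9 CPM to 208 and 141 (0.85, adjusted p = 7.4e-05). NEAT1 was also higher than under siE1 (1.0) and siE3 (1.02).

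Translation factors had 34 of 41 members lower and none higher (median -0.27). EIF4EBP2, a repressor of the cap-binding factor, went from 217 and 214 CPM to 129.6 and 128 (log2 fold change -0.75). EIF3J and EIF3M of the initiation factor that organises the small subunit fell by 0.71 and 0.44, EIF1AX by 0.66 and EIF2B1 by 0.49. The cytosolic aminoacyl-tRNA synthetases had 20 of 23 lower and 1 higher (median -0.29). YARS, the tyrosine enzyme, went from 179 and 186 CPM to 78.6 and 77.7 (-1.22, SE 0.0481, adjusted p = 4.5e-11). RARS, the arginine enzyme, went from 262 and 269 CPM to 122 and 123 (-1.12). Both enzymes were lower than under siE1 (-0.91 and -1.12) and siE3 (-0.89 and -0.85). WARS, the tryptophan enzyme, rose by 0.29. The proteasome, which degrades proteins, had 23 of 32 lower and none higher, with a median of -0.20 and no member at 1.5-fold. PSMD1 fell by 0.57 and PSMB5, a catalytic subunit, by 0.44. In the highest CPM class, where 45.1% of all genes were called lower, lay 37 translation factors, 20 synthetases and 30 proteasome genes.

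**Figure D3:**
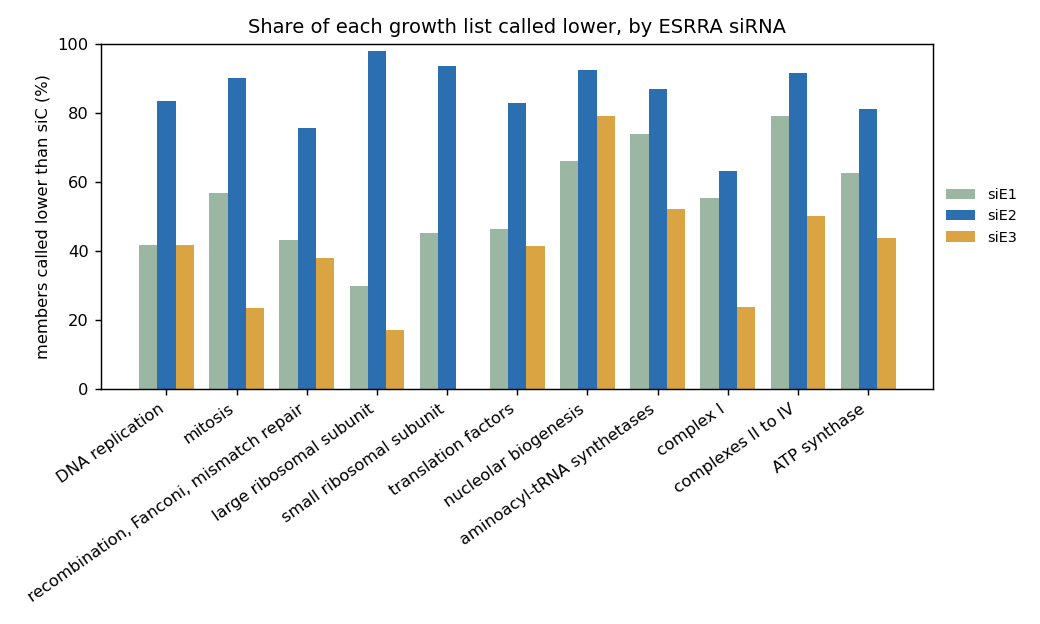
Percentage of the tested members of 11 growth and mitochondrial lists called lower than siC (vertical axis, from 0) for siE1, siE2 and siE3, each against the same siC libraries. The siE2 bar is the highest in each of these 11 lists, which leave out the citric acid cycle (17 of 32 lower under siE2 and 18 under siE1), and the siE3 bar of the small ribosomal subunit is 0.

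Mitochondrial genes, the best known targets of ERR alpha, fell together at modest size. Complex I, which takes electrons from NADH, had 24 of 38 members lower and 1 higher (median -0.22), none lower by 1.5-fold. NDUFS1 went from 196 and 208 CPM to 146 and 145 (log2 fold change -0.48), and NDUFAB1 fell by 0.47 and NDUFS3 by 0.44. NDUFS8 rose by 0.23. Complexes II to IV had 22 of 24 lower and 1 higher (median -0.35). The highest CPM class, where 45.1% of all genes were called lower, held 20 of these 24 and 9 of the 38 genes of complex I. CYC1, cytochrome c1 of complex III, went from 389.8 and 399 CPM to 234 and 239 (-0.74, SE 0.0411, adjusted p = 1.3e-09). CYCS, cytochrome c, fell by 0.78, COX5A of complex IV by 0.62 and SDHA of complex II by 0.40, while SDHC rose by 0.37. The siE2 and siC libraries did not overlap in NDUFS1 or CYC1.

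ATP synthase had 13 of 16 members lower and none higher (median -0.26). ATP5B, the catalytic beta subunit, went from 1250 and 1301 CPM to 631 and 639, a log2 fold change of -1.01 (SE 0.0402, adjusted p = 4.9e-11). ATP5L went from 147 and 154 CPM to 64.4 and 74.4 (-1.12). ATP5L has a close copy, ATP5L2, so how reads were shared between them is uncertain. ATP5A1, the alpha subunit, fell by 0.43. Against siE1, ATP5B differed by -0.61 and ATP5L by -0.78, and against siE3 by -0.68 and -1.02. Of the 16 genes, 11 were lower than under siE1 and 10 lower than under siE3. For complex I these counts were 11 and 17 of 38, so most of its members did not pass the test against the other siRNAs in this direction. In the other direction, 7 complex I genes were higher under siE2 than under siE1. Complexes II to IV had 11 lower and 7 higher than under siE1, and the mitochondrial ribosome 28 lower and 18 higher.

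SDHD, the small membrane anchor of complex II, carried the only ERR response element found in the respiratory lists. It went from 102 and 101 CPM to 64.6 and 66.6 (log2 fold change -0.63, SE 0.0538). The word TCAAGGTCA, on either strand, was in 0.353% of the 35116 promoters of the table. Its window is shown with the word in capitals, read on the gene's strand and so reversed and complemented.
SDHD, chr11:112086859-112086902, plus strand: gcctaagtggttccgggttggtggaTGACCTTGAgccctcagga
The word began 11 bases after the gene start. SDHD differed from siE1 by -0.19 (adjusted p = 0.0083) and from siE3 by -0.14 (adjusted p = 0.053).

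In the citric acid cycle and pyruvate entry, 17 of 32 genes fell and 8 rose (median -0.16), while siE1 lowered 18 and siE3 14. The highest CPM class, where 45.1% of all genes were called lower, held 20 of the 32. OGDH, a subunit of oxoglutarate dehydrogenase, went from 267 and 283 CPM to 145 and 139 (log2 fold change -0.95, SE 0.0473). DLAT of pyruvate dehydrogenase fell by 0.61, SUCLG1 and FH each by 0.51, and MDH1, the cytosolic malate dehydrogenase, by 0.59. PDK2, a kinase that turns pyruvate dehydrogenase off, rose from 17.1 and 18.0 CPM to 32.7 and 32.8 (0.90), and PC, pyruvate carboxylase, rose by 0.59. Mitochondrial ribosomal proteins had 51 of 76 lower and 4 higher (median -0.26), led by MRPS25 (-0.66), MRPS30 (-0.61) and MRPS18A (-0.77). Mitochondrial import and folding had 25 of 31 lower and 1 higher (median -0.33). TOMM34, a cochaperone of import, went from 302 and 320 CPM to 109 and 121 (-1.44), and TOMM22, a receptor of the outer membrane, from 95.3 and 101 to 39.8 and 40.7 (-1.28). HSPD1, the chaperonin of the matrix, fell by 0.88. The TOMM34 log2 fold change was -0.73 under siE1 and 0.00 under siE3, and siE2 differed from these by -0.70 and -1.43.

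Glycolysis and the pentose phosphate pathway had 18 of 33 genes lower and 9 higher (median -0.16). These are 54.5% and 27.3%, against 28.5% and 27.9% over all genes. The highest CPM class, where 45.1% of all genes were called lower, held 22 of the 33. HK2, the hexokinase of many tumours, went from 214 and 206 CPM to 95.6 and 103 (log2 fold change -1.08, SE 0.0573). TPI1 went from 474 and 506 CPM to 277 and 289 (-0.79), PGK1 fell by 0.60, and RPIA of the pentose phosphate pathway by 1.01. PGLS, the lactonase of that pathway, rose by 0.56. Against siE1, HK2 and TPI1 differed by -0.94 and -0.88.

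Lipid and lysosomal genes ran the other way. ACLY, which makes cytosolic acetyl-CoA, rose from 199 and 214 CPM to 614 and 606 (log2 fold change 1.56, SE 0.0449, adjusted p = 6e-12). Its difference from siE1 was -0.03 (adjusted p = 0.61) and from siE3 -0.21 (adjusted p = 0.00077), so siE3 raised it further. Of 17 genes of fatty acid synthesis 8 rose and 1 fell (median 0.14), with SCD, the stearoyl-CoA desaturase, rising by 0.37 and FADS1 and FADS2 by 0.49 and 0.48. Of 27 cholesterol genes 14 rose and 3 fell (median 0.13). INSIG1, which holds back SREBP, went from 174 and 198 CPM to 365 and 329 (0.90), and FDPS fell by 0.33. Against the same controls, 21 cholesterol genes rose under siE1 and 17 under siE3. Fatty acid oxidation, another known ERR alpha pathway, had 3 of 26 lower and 4 higher (11.5% and 15.4%, both below the shares over all genes, median 0.04). ACSL1, which activates fatty acids, fell by 0.84, HADHA by 0.35, and EHHADH of the peroxisome rose by 0.69.

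Of 43 lysosomal genes 26 rose and 5 fell (median 0.25, against 27.9% higher among all genes). CTSD, the protease cathepsin D, went from 313 and 319 CPM to 804 and 726 (log2 fold change 1.27, SE 0.0522, adjusted p = 6.3e-11). LIPA, the acid lipase, went from 108 and 106 CPM to 245 and 229 (1.15), and NEU1, a sialidase, from 33.5 and 31.3 to 71.5 and 68.6 (1.11). In all 3 the siE2 libraries were higher. LAMP1, a major membrane protein of the lysosome, instead went from 322 and 313 CPM to 186 and 189 (-0.76), and LAMP2 rose by 0.54. CTSD was higher than under siE1 (1.08) and siE3 (0.61). Against the same controls, 19 of the 43 genes rose under siE1 (median 0.12) and 24 under siE3 (median 0.24). Directly, 18 were higher and 8 lower under siE2 than under siE1, and 16 and 10 than under siE3. Autophagy genes split, with 14 of 31 higher and 11 lower (median 0.06): ULK1, the initiating kinase, rose by 0.79 and SQSTM1 by 0.60, while ATG7 fell by 0.42.

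Extracellular matrix genes gave the largest median rise of the lists examined, 0.61 on the log2 scale, with 33 of 43 tested members higher and 5 lower. COL5A1 went from 22.8 and 20.8 CPM to 75.6 and 74.6 (log2 fold change 1.78, SE 0.0671). LOX, the lysyl oxidase that crosslinks collagen, went from 21.5 and 19.5 CPM to 79.1 and 69.3, a 3.62-fold difference (1.85). COL6A1 went from 45.9 and 47.5 CPM to 107 and 99.5 (1.14). The groups did not overlap in these genes, and 21 of the 43 were at least 1.5-fold higher. LOXL2 rose by 0.91 and LTBP2, which binds latent TGF-beta, by 0.74. The matricellular gene CTGF fell by 0.40 and COL8A1 by 0.34. Against siE1, 27 of the 43 were higher under siE2 and 5 lower, and against siE3, 24 were higher and 5 lower. COL5A1 differed from siE1 by 0.18 (adjusted p = 0.018) and from siE3 by 1.44.

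**Figure D4:**
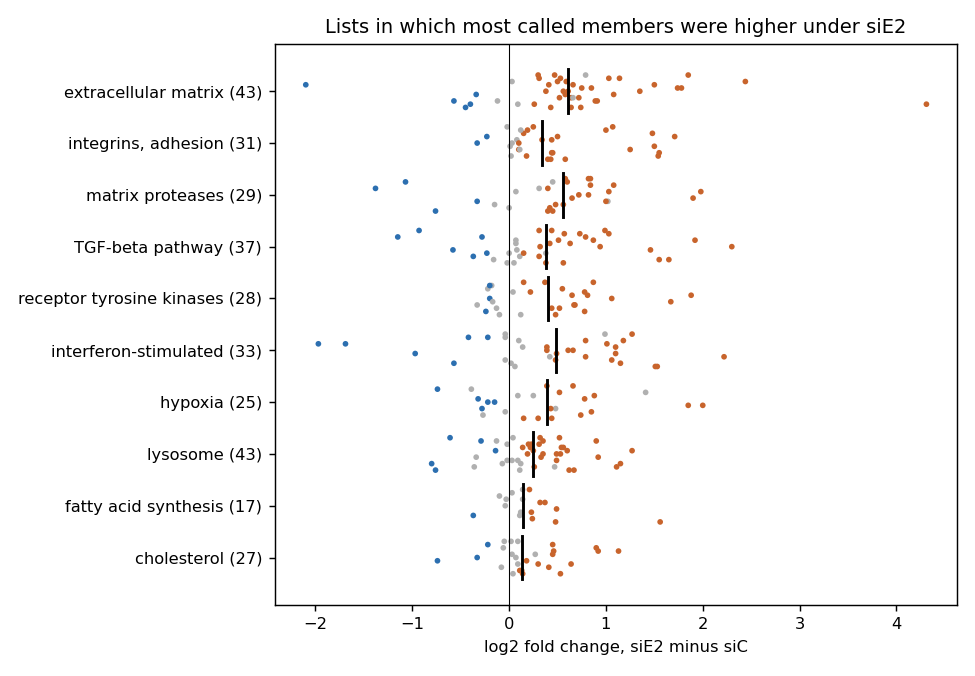
Log2 fold change of each tested member of 10 lists under siE2 against siC (horizontal axis); orange members were called higher, blue lower, grey were not called, and the black bar is the median. Medians run from 0.13 for cholesterol genes to 0.61 for the extracellular matrix, and each list also holds blue points.

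Adhesion and matrix remodelling genes rose beside the matrix itself. Integrins and focal adhesion genes had 22 of 31 higher and 2 lower (median 0.34). ITGA3, a laminin receptor, went from 360.4 and 353 CPM to 867 and 829 (log2 fold change 1.25, SE 0.0433), ITGAV rose by 1.0 and ITGB4 by 1.5. ZYX, zyxin of focal adhesions, fell by 0.33. Matrix proteases and their inhibitors had 19 of 29 higher and 4 lower (median 0.56). TIMP3, an inhibitor held in the matrix, went from 30.8 CPM in both siC libraries to 119 and 110.3 (1.90). TIMP2 rose by 0.84, the membrane collagenase MMP14 by 0.82 and ADAM19 by 1.03. ADAMTS6 went from 353 and 379.8 CPM to 174 and 175 (-1.07). MMP1, the interstitial collagenase, was at 9.17 and 13.0 CPM under siC and 8.04 and 5.09 under siE2. Its log2 fold change was -0.76 (adjusted p = 0.0059), a call that was lost in DESeq2's test (adjusted p = 0.074), without siC replicate 2 (adjusted p = 0.11) and without siE2 replicate 2 (adjusted p = 0.092).

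In the TGF-beta pathway 22 of 37 genes rose and 6 fell (median 0.38). Among ligands, TGFB2 went from 37.0 and 35.1 CPM to 142 and 131, a 3.79-fold difference (log2 1.92, SE 0.0698, adjusted p = 2.5e-11). BMP4 went from 10.5 and 7.71 CPM to 28.9 and 24.4 (1.55). Of the receptors, TGFBR1 rose by 0.99 and TGFBR2 by 0.42, while ACVR2B, an activin receptor, fell by 1.15. TGFBR1 was lower under siE2 than under siE1 (-0.97) and siE3 (-0.85). TGFBR2 was higher under siE2 than under siE1 (0.29) and lower than under siE3 (-0.52). SMAD5, which carries BMP signals, rose by 1.03. TGFB2 stood at 56.7 and 56.9 CPM under siE1 and at 22.2 and 26 under siE3, so the 3 siRNAs gave separate levels. Of the 37 genes, 14 were higher and 12 lower under siE2 than under siE1, and 13 and 12 than under siE3. Among receptor tyrosine kinases and their ligands 17 of 28 rose and 3 fell (median 0.41). PDGFB went from 8.40 and 6.56 CPM to 23.9 and 23.7 (1.67), GAS6 rose by 0.87, and its receptor AXL went from 1596 and 1491 CPM to 2378 and 2471 (0.65).

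Mesenchymal markers had 6 of 11 higher and 1 lower (median 0.44), and epithelial markers had 10 of 21 higher and 3 lower (median 0.40). SNAI2 and S100A4 (1.83) rose among the former and VIM fell by 0.19. FN1, fibronectin, went from 133 and 105 CPM to 208 and 219 (0.85). KRT7, an epithelial keratin, rose by 1.35, CLDN7 of tight junctions by 0.97 and SPINT2 by 0.86, so members of both lists rose. In the actomyosin list 23 of 40 rose and 11 fell (median 0.18). MYLK, the myosin light chain kinase, rose by 0.92 and RDX, radixin, by 1.08, while TPM1 rose by 0.70 and its relative TPM3 fell by 0.87. Among YAP and TAZ targets 15 of 29 rose and 4 fell (median 0.18), with NT5E and TEAD1 both at 0.57 and CRIM1 at -0.71. CTGF, which fell by 0.40, was counted with the matrix genes and not in this list. RHOA, the GTPase that drives contraction, went from 790.1 and 789.6 CPM to 676 and 679 (-0.22, adjusted p = 0.00015). TNFAIP1, an adaptor that brings RHOA to the ubiquitin ligase scaffold CUL3, went from 78.1 and 77.8 CPM to 37.0 and 40.3 (-1.01), and CUL3 fell by 0.27.

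Stress and immune lists were mixed. Of 33 interferon-stimulated genes and RNA sensors 18 rose and 6 fell (median 0.48). IFIT1 went from 15.1 and 17.5 CPM to 49.4 and 44.8 (log2 fold change 1.53) and IRF1 from 12.8 and 15.0 to 34.1 and 27.6 (1.15). EIF2AK2, the kinase PKR that senses double-stranded RNA, went from 69.7 and 67.6 CPM to 33.7 and 36.5 (-0.97). EIF2AK2 was lower than under siE1 (-0.86) and siE3 (-0.92). Against the same controls, 18 of the 33 genes rose under siE1 (median 0.56) and 11 under siE3 (median 0.19). Directly, 7 were higher and 11 lower under siE2 than under siE1, and 8 and 9 than under siE3. In the NF-kB list 10 of 30 rose and 3 fell (33.3% and 10.0%, against 27.9% and 28.5% over all genes, median 0.06). CSF1, a macrophage growth factor, stood at 37.0 and 38.8 CPM under siC and 147 and 121 under siE2 (1.82). NFKB1 was at -0.80. Of the same 30 genes, 19 rose under siE1 and 11 under siE3 against siC. AP-1 and immediate early genes had 8 of 27 higher and 7 lower (29.6% and 25.9%, near the shares over all genes, median 0.05).

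Of 31 p53-linked genes 11 rose and 8 fell (35.5% and 25.8%, against 27.9% and 28.5% over all genes, median -0.02). PHLDA3 rose by 1.36 and AEN fell by 0.71. MDA-MB-231 carries a mutant p53. In the unfolded protein and ATF4 list 14 of 31 rose and 7 fell (median 0.19). CALR, the chaperone calreticulin, went from 738 and 747 CPM to 1339 and 1277 (log2 fold change 0.82, SE 0.0396), PDIA4 rose by 0.73 and HSP90B1 by 0.58. HSPA5, the chaperone BiP, and its regulator ATF6 instead fell by 0.33 and 0.74. Hypoxia genes had 13 of 25 higher and 5 lower (median 0.39), with BNIP3L at 0.85 and VEGFA at 0.78. NRF2 and iron genes had 14 of 27 higher and 9 lower (median 0.20): catalase (CAT) rose by 0.93 and TXNRD1 by 0.63, and the transferrin receptor TFRC went from 886 and 908 CPM to 578 and 551 (-0.67). Apoptosis regulators had 7 of 28 higher and 6 lower (25.0% and 21.4%, both below the shares over all genes, with a median of 0.00). Among them BMF, BBC3 (0.91) and BCL2L11 (0.67), all pro-apoptotic, rose, while CYCS, cytochrome c, whose release drives apoptosis, fell by 0.78 and the protective BCL2L1 went from 735 and 727 CPM to 499 and 528 (-0.51).

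Genes that siE2 set apart from all 3 other groups were ranked by their smallest difference from any of them. LOX led the rises, at 21.7 and 22.2 CPM under siE1 and 17.3 and 17.5 under siE3 beside 79.1 and 69.3 under siE2, with log2 differences of 1.76 and 2.09. LOXL4, a second lysyl oxidase, stood at 12.9 and 9.62 CPM under siE2 and between 2.37 and 3.71 in the other 6 libraries. FST, follistatin, which binds activin, stood at 17.3 and 17.1 CPM under siE2 and between 5.29 and 7.91 elsewhere. SNAI2 was at 17.6 and 15.4 CPM under siE1 and 17.1 and 19.3 under siE3, above siC and below siE2. SATB1, a chromatin organiser, GALNT5, MMP15, FAT4, BMF, FILIP1L, SLC38A4 and LFNG completed the 12 that led. Being apart from the other libraries was a condition of the choice.

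Among the falls, GPD1L led, at 54.3 and 59.0 CPM under siE1 and 45.6 and 44.7 under siE3 beside 11.6 and 12 under siE2. JKAMP stood at 99.7 and 103 CPM under siE1 and at 97.6 and 105 under siE3, above siC, and differed from each by -1.99 under siE2. ZNF367, a zinc finger factor, was at 43.0 and 40.8 CPM under siE2, 98.1 and 104 under siC, 205 and 186 under siE1 and 115 and 135 under siE3. The 4 groups did not overlap for ZNF367. GIPC1, an adaptor of receptor trafficking, was at 52.8 and 59.1 CPM under siE2 and between 128 and 191 in the other libraries. CDC37L1, SLC40A1, DYNLT1, SLC47A1, C15orf57, RBM34, CDC25A and TRIAP1 made up the rest.

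**Figure D5:**
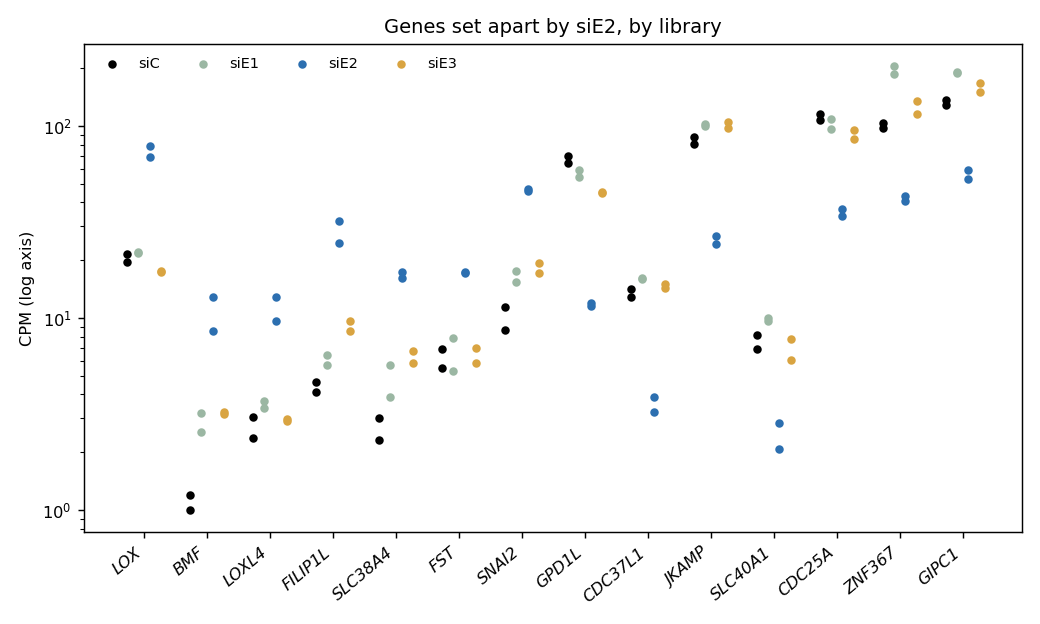
CPM (log axis) in each of the 8 libraries for 14 genes set apart by siE2, 7 higher and 7 lower; each point is 1 library, coloured by siRNA. The genes were chosen for siE2 lying apart, and for SNAI2 the siE1 and siE3 points lie between siC and siE2.

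The authors' deposited table called 6223 genes for siE2 against siC, 2924 higher and 3299 lower. Of these, 6215 (99.9%) were called here in the same direction. Both rest on the same libraries.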

How the data were processed

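Per the submitters' processing notes, which give no order, TopHat 1.3.3, HTSeq, DESeq and build hg19 were used; annotation and strand setting were not given in the sources used here. The deposited table holds raw counts per gene for 8 libraries, beside the authors' fold changes (a ratio) and p-values. Columns were matched to libraries by name. Of 23368 symbols, 5492 had no count. Counts were analysed with edgeR 4.0.16 in R 4.3.3: TMM scaling, filterByExpr, a quasi-likelihood test fitted on all 8 libraries with the 4 groups (4 residual degrees of freedom, biological coefficient of variation 4.08%) and Benjamini-Hochberg adjustment over 13395 genes at 0.05. SE is the log2 fold change divided by the square root of F. CPM use TMM-scaled library sizes. DESeq2 1.42.0 and limma 3.58.1 were alternatives. On simulated counts for siE2 against siC (13272 genes, 200 changed), 34.7% of changes of 0.25, 70% of 0.5, 94% of 1 and 95.9% of 2 on the log2 scale were recovered, and 8.18% of calls were false. The simulation took its spread from these same libraries and changed far fewer genes than the 56.4% called in the data. Its shares of recovered and false calls therefore need not hold for the real comparison.

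The genes and the 45 lists were chosen with earlier results of these data known. Named genes were ESRRA, ESRRB, ESRRG, TNFAIP1, CUL3, RHOA and MMP1; the 14 highest and lowest fold changes and the 12 genes most set apart by siE2 each way, restricted to a mean CPM of 5 or more and to groups that did not overlap; and, per list, up to 5 members with the smallest p in the prevailing direction and up to 2 in the other.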

Additional observations from a re-analysis of the deposited data

Results flagged for a closer look

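Some named genes moved in opposite directions under siE2 and another ESRRA siRNA, each called against the shared siC libraries, with a direct difference between the siRNAs called at 1 or more on the log2 scale. Over all 13395 tested genes, and without that size limit, 494 were higher under siE2 and lower under siE1 with the direct contrast called. In turn 409 were lower and higher, and for siE3 these counts were 245 and 260. With the limit of 1 on the log2 scale, 251 genes remained for siE1 and 113 for siE3.

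Higher under siE2 and lower under siE1 were C4orf34 (log2 difference, siE2 minus siE1, 3.53), IGFBP3 (2.14), BNIP3L (1.88), FN1 (1.5), PDK2 (1.37), HIST2H2BE (1.31), TNS3 (1.23), EHHADH (1.20), HIST1H2BD (1.05) and BCL2L11 (1.01). IGFBP3, which binds insulin-like growth factors, was at 197 and 204 CPM under siC, 353 and 351 under siE2, 81.6 and 78.5 under siE1 and 127 and 131 under siE3. Lower under siE2 and higher under siE1 were ZNF367 (-2.22), CDC37L1 (-2.17), C15orf57 (-2.03), CDKN1A (-2.01), SLC40A1 (-2.0), JKAMP (-1.99), GIPC1 (-1.77), GCLM (-1.38), EIF4EBP2 (-1.07) and ETV4 (-1.07). CDKN1A, the inhibitor p21, was at 77.3 and 73.6 CPM under siE1, above siC, and at 19.2 and 18.1 under siE2, below it.

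Against siE3, the genes higher under siE2 and lower under siE3 were TGFB2 (log2 difference, siE2 minus siE3, 2.50), LOX (2.09), HIST2H2BE (1.46), IGFBP3 (1.45), TIMP2 (1.25) and TPM1 (1.09). Those lower under siE2 and higher under siE3 were JKAMP (-1.99), ZNF367 (-1.58) and GIPC1 (-1.5). The fall of LOX under siE3 against siC was near the threshold (adjusted p = 0.045), as was the rise of CDC37L1 under siE1 (adjusted p = 0.047).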

How the results depend on the processing

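The counts against siC rest on 2 libraries a group. Over the other tools, scalings, filters and fits the count of genes higher under siE2 ran from 3108 (DESeq2's Wald test) to 4190 (library size alone) and of genes lower from 3341 to 4245, and leaving out each library in turn gave 3119 to 3803 and 3252 to 3901. Scaling by library size alone moved the median of all genes from 0.01 to 0.05 and the higher share of calls from 49.4% to 55.4%. ESRRA ranged from -3.14 to -2.85. No log2 fold change of the 319 named genes changed sign over 5103 refits, and 41 refits in 16 genes lost the call, among them MMP1, both histone H2B genes, CENPK, GRHL1 and FGFR1.

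Samples with the same replicate number deviated together for siC with siE3 (correlation 0.259 over 10483 genes) and siE1 with siE2 (0.366). They deviated apart in every other pair of groups (from -0.392 to -0.336, the latter for siC with siE2). The main fit had no term for this pattern, the labels name no batch, and its source was not tested. With the replicate block 3568 genes were higher and 3657 lower, and with the siE1 and siE2 numbers exchanged, a pairing chosen after seeing the data, 4149 were higher and 4245 lower.

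Among lists with more members called higher than lower, the count of members higher moved by more than 1.5 times in 5. Counts in the less frequent direction, some of which also moved, are left out here. DESeq2's test called 0 histone genes higher in place of 2, with a range of 0 to 2 over the left-out libraries. Leaving out 1 library gave 2 to 4 for fatty acid oxidation, 9 to 14 for autophagy (9 without siC replicate 1), 6 to 11 for NF-kB (6 without siE2 replicate 1) and 7 to 12 for p53-linked genes (7 without replicate 1 of siC or of siE2). The cause was not tested.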

Other observations

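The machinery of microRNAs and RNA interference, through which siRNAs act, had 5 of 14 tested genes lower and 2 higher under siE2 (median log2 fold change -0.06). The 7 calls are no larger a share than the 56.4% called over all genes, and single members are given as values. XPO5, which exports microRNA precursors from the nucleus, went from 279 and 278 CPM under siC to 140 and 144 under siE2 (-0.97, SE 0.0489, adjusted p = 4.8e-10). TARBP2, the partner of Dicer, went from 32.0 and 33.9 CPM to 19.1 and 18.9 (-0.79). EIF2C2, the slicing Argonaute AGO2, fell by 0.28. DICER1 rose from 172 and 157 CPM to 278 and 249.8 (0.68), and EIF2C4 rose by 1.07. XPO5 was lower under siE2 than under siE1 (-0.55) and siE3 (-0.38), while DICER1 was higher than under siE1 (0.43) and lower than under siE3 (-0.29). The E-box word CACGTG, on either strand, was in 37.2% of 43 matched nucleolar promoters, which belong to a list that fell, and in 34.6% of 26 lysosomal ones, from a list that rose, against 7.26% of all 35116 promoters. Other lists also exceeded 7.26%, among them YAP and TAZ targets (26.1%) and translation factors (21.2%), while extracellular matrix promoters were at 0.0%. Only 60.5% of the lysosomal genes had a matched promoter.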
